A study of Mus musculus with 2 samples.

Results

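The genes described here build and regulate the actin cytoskeleton of motile leukocytes. They are Actb, Actg1, Tmsb4x, Tmsb10, Pfn1, Cfl1, Coro1a, Arpc1b, Lcp1 and Vim. They were chosen by name, and the gene table held all of them, 10 of 54532 genes. The table gives RNA sequencing of macrophages from the aorta of male ApoE-/- mice of the C57BL/6J background, labelled as 6 weeks old, in 2 groups. The study compared macrophages between 2 syndromes of dyslipidemia defined in traditional Chinese medicine. In the group with Phlegm-Dampness Retention (PDR), the mice received high-fat feed over 4 weeks. In the group with Spleen and Kidney Yang Deficiency (SKYD), propylthiouracil, a drug that blocks the synthesis of thyroid hormone, was given by gavage at 10 mg/kg per day for 4 weeks, followed by 2 weeks of the high-fat diet. The schedule of the SKYD group was thus also longer in total. The syndrome, the drug, the length of the diet and the time in the experiment therefore cannot be told apart. Aortic cells were released with trypsin and sorted on F4/80 and CD11b, and the cells of 5 mice were pooled into 1 library for each group. No difference between the libraries has a replicate check. Both groups carried the Apoe deletion, and mice without it were not analysed here.

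Leukocytes crawl, spread and engulf particles by assembling actin filaments beneath the plasma membrane and taking them apart again. Thymosins hold a reserve of actin monomers, profilin hands monomers to growing filament ends, and the Arp2/3 complex starts new branches from existing filaments. Cofilin and coronins act on older filaments and branches, plastins tie filaments into bundles, and vimentin forms a separate network of intermediate filaments.

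Expression was given as FPKM, the fragments on a gene per kilobase of its length and per unit of library size. Because FPKM multiplied by gene length moved in whole steps, the number of reads on each gene could be recovered. The PDR library had 23086889 reads on genes and the SKYD library had 25427863. The library size used in FPKM was not this sum but 1.02 times it for PDR and 0.983 times it for SKYD, so that the differences lie lower than with all reads on genes as the size. The names PDR and SKYD stand for these libraries in what follows. Differences are in log2(FPKM + 1), with the SKYD value subtracted from the PDR value, so that a positive difference is higher in PDR. The 95% confidence intervals (CI) are exact Clopper-Pearson intervals on how the reads of a gene divide between the libraries, and they cover counting error only. For a gene with 0 reads, a limit of 3 reads corresponds to 1.30e-05% of all reads for PDR and 1.18e-05% for SKYD.

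The 10 genes were abundant in both libraries, and they did not differ in a common direction. Together they took 3.43% of reads in PDR (95% CI 3.42 to 3.44) and 4.11% in SKYD (95% CI 4.10 to 4.11). All 10 had a mean FPKM of at least 1, the minimum for a gene to be compared. Lcp1, Coro1a, Tmsb10, Cfl1 and Vim were higher in PDR, 5 of the 10 against 49.6% of compared genes, and Actb, Arpc1b, Actg1, Tmsb4x and Pfn1 were higher in SKYD, 5 of the 10 against 50.4%. Lcp1 was the only one of the 10 to differ by more than 2-fold, against 1486 of 10399 compared genes, or 14.3%. It was higher in PDR, as were 7.38% of compared genes by that fold, and 0 of the 10 were higher in SKYD by more than 2-fold, against 6.91%. At 1.5-fold, 4 of the 10 genes differed, against 30.2% of compared genes, so that the share of the 10 genes past either fold was near that of all genes. Of these 4, Lcp1, Coro1a and Tmsb10 were higher in PDR, against 15.1% of compared genes, and Actb was higher in SKYD, against 15%. The median difference of the 10 genes was -0.08, and that of all compared genes was -0.0035. The median of the 10 genes was 0.038 when antigen receptor, haemoglobin and mitochondrial reads were left out of the library size and 0.049 when only reads of protein-coding genes were counted. These scalings by selected reads also put reads on genes in place of the size used in FPKM. Each step was taken alone after the data had been seen. With all reads on genes as the size the median was -0.027, and with the size used in FPKM reduced by the share of reads left out it was -0.012 and -0.00013, respectively. It thus turned positive only with both steps together. Protein-coding reads with both steps moved the median of all compared genes by 0.11, to 0.10. Relative to the median of all compared genes, the median of the 10 genes was -0.07 as deposited, -0.06 without antigen receptor, haemoglobin and mitochondrial reads and -0.05 with protein-coding reads.

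**Figure D1:**
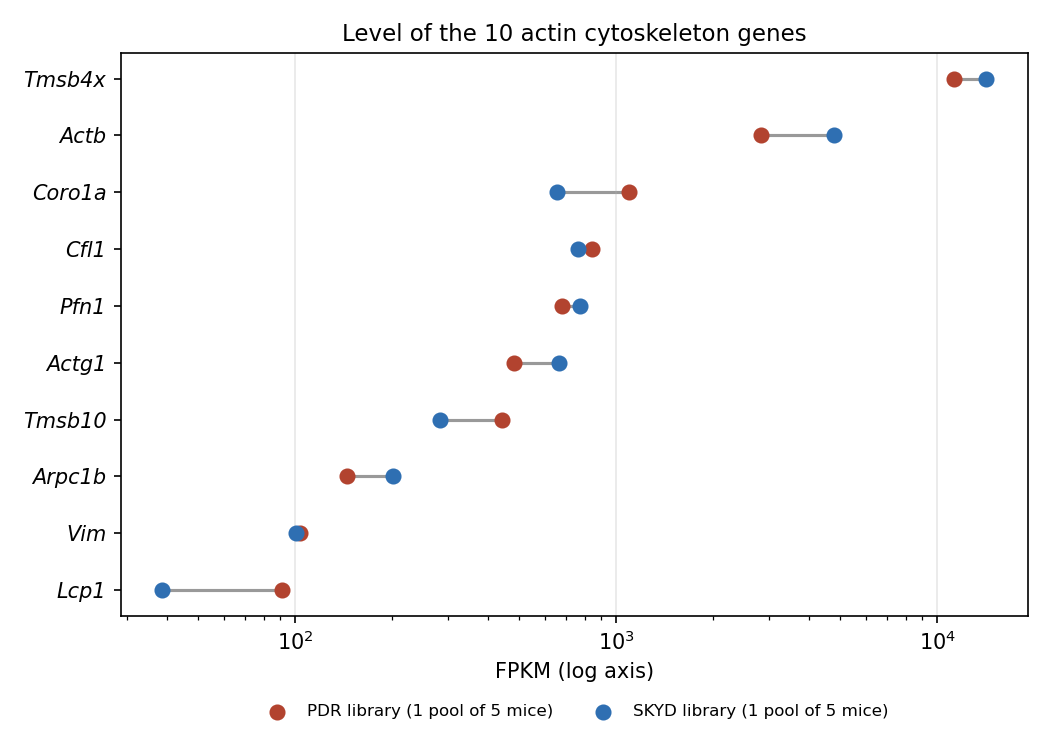
Level of each of the 10 genes in FPKM on a log axis, with 1 point for the PDR library and 1 for the SKYD library, each a pool of 5 mice. Levels ran from 38.5 for Lcp1 in SKYD to 14232 for Tmsb4x in the same library, and the points of Vim and Cfl1 lay close together.

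**Figure D2:**
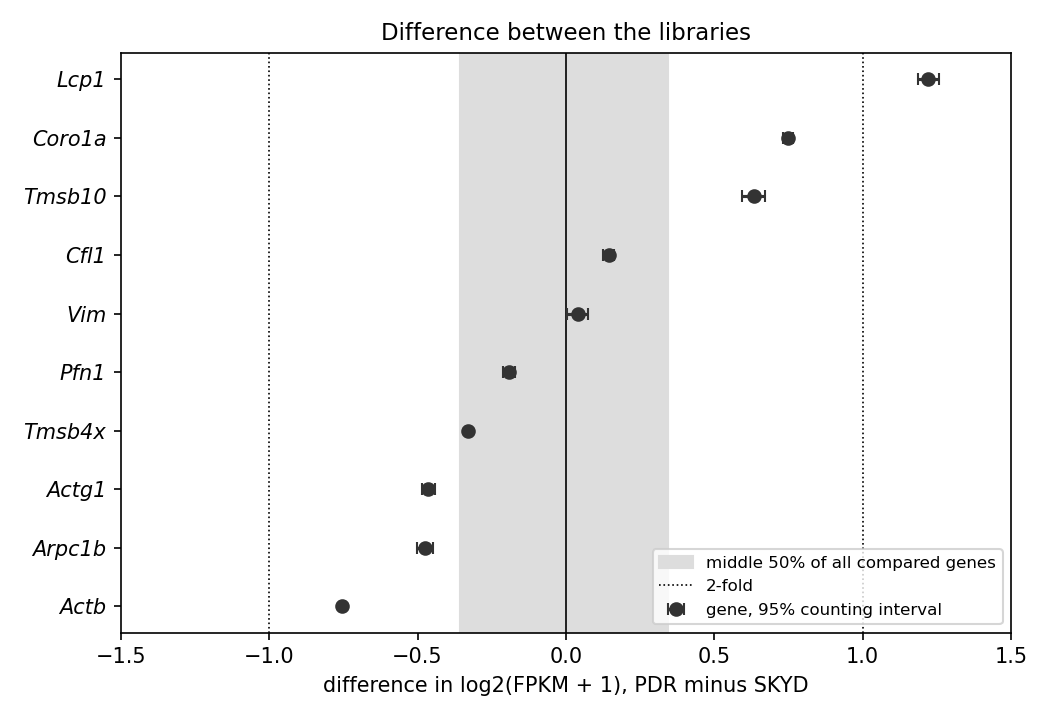
Difference of each of the 10 genes in log2(FPKM + 1), PDR minus SKYD, with 95% counting intervals. The grey band holds the middle 50% of all compared genes, from -0.36 to 0.35, and the dotted lines mark 2-fold; Lcp1 lay past 2-fold at 1.22 and Actb was the lowest at -0.75.

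Actb and Actg1 encode the cytoplasmic actins beta and gamma, from which the filaments are built, and both were lower in PDR. Actb (ENSMUSG00000029580, chr5:142903115-142906754 on the minus strand of GRCm38) had an FPKM of 2831 in PDR, from 178118 reads, and 4775 in SKYD, from 319741 reads. Its level in SKYD was 1.69 times that in PDR, with a difference of -0.75 (95% CI -0.76 to -0.75). Ordered by FPKM over all genes, Actb ranked 22 in PDR and 15 in SKYD. It is commonly taken as a reference gene, and 78.7% of compared genes differed by less than it did. Actg1 (ENSMUSG00000062825, chr11:120345690-120348542, minus strand) had an FPKM of 481 in PDR and 664 in SKYD, a difference of -0.46 (95% CI -0.48 to -0.44). Within a library, the level of Actb was 5.88 times that of Actg1 in PDR (95% CI 5.81 to 5.95) and 7.19 times in SKYD (95% CI 7.12 to 7.26), so that gamma actin made up a larger part of cytoplasmic actin RNA in PDR. In these pooled cells, fewer cells of a type and less RNA per cell cannot be told apart.

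The 2 actin genes encode nearly the same protein, and how far their reads can be separated depends on their sequence. The first 90 bases of each coding sequence are shown because they let the sequences be compared base by base, with capitals at the 16 bases that differ between the genes.
Actb: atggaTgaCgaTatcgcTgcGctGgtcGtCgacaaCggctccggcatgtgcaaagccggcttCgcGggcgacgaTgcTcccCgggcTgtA
Actg1: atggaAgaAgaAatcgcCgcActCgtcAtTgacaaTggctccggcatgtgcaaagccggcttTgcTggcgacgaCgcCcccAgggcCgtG
Over the whole coding sequence, 1000 of 1128 bases were identical (88.7%), and the longest identical run was 62 bases, shorter than the reads of 100 bases. Reads within the coding sequences could therefore differ between Actb and Actg1, and the uncertainty of Actg1 lay with its pseudogenes. Of all stretches of 100 bases in Actg1 transcripts, 29.9% also occurred in a transcript of another gene, against 0.644% for Actb. The processed pseudogene Gm12715 held the most of these and was assigned 1263 reads in PDR and 1786 in SKYD, next to 30046 and 44121 for Actg1 itself. Reads that fit several places may have been counted for no gene, and their number was not measured, so the size of the uncertainty in Actg1 is not known.

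Tmsb4x and Tmsb10 encode the small peptides thymosin beta 4 and thymosin beta 10, which bind actin monomers and keep them out of filaments. The whole coding sequences are shown because the genes differed in opposite directions and can be compared base by base, with capitals at the bases that differ.
Tmsb4x: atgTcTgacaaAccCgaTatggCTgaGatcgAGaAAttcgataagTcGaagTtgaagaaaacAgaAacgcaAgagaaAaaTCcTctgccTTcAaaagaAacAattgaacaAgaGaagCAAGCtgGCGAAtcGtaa
Tmsb10: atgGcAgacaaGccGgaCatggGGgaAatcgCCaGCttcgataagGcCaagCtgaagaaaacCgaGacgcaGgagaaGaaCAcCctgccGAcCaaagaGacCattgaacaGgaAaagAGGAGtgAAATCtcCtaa
Of 135 coding bases 95 were identical (70.4%), and no identical run was longer than 10 bases, so that reads could be assigned to either gene. No stretch of 100 bases in Tmsb4x transcripts occurred in another gene. For Tmsb10 the share was 11.1%, mostly with the gene Gm9844, which had 183 reads in PDR and 122 in SKYD.

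Tmsb4x (ENSMUSG00000049775, chrX:167207093-167209315, minus strand) was the most abundant of the 10 genes, with an FPKM of 11326 in PDR and 14232 in SKYD. These levels came from 364727 and 487685 reads and ranked 4 among all genes in both libraries. The difference was -0.33 (95% CI -0.34 to -0.32), within the middle 50% of compared genes. Tmsb4x took 1.58% of all reads in PDR and 1.92% in SKYD, next to 0.772% and 1.26% for Actb. Tmsb10 (ENSMUSG00000079523, chr6:72957347-72958748, minus strand) had an FPKM of 441 in PDR, from 13205 reads, and 284 in SKYD, from 9048 reads. The level in PDR was 1.55 times that in SKYD, a difference of 0.63 (95% CI 0.59 to 0.67). As a result, the balance of the thymosins differed between the libraries. The level of Tmsb4x was 25.7 times that of Tmsb10 in PDR (95% CI 25.3 to 26.2) and 50.2 times in SKYD (95% CI 49.1 to 51.2). Relative to the actin whose monomers it binds, Tmsb4x was 4.0 times the level of Actb in PDR (95% CI 3.98 to 4.02) and 2.98 times in SKYD (95% CI 2.97 to 2.99).

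Profilin and cofilin act on opposite ends of the cycle of filament growth and loss, and neither gene differed much between the libraries. Pfn1 (ENSMUSG00000018293, chr11:70651850-70654644, minus strand), which encodes profilin 1, had an FPKM of 677 in PDR and 774 in SKYD. Its difference was -0.19 (95% CI -0.21 to -0.17). Cfl1 (ENSMUSG00000056201, chr19:5490455-5495201, plus strand) encodes cofilin 1, which severs aged filaments. Its FPKM was 843 in PDR and 762 in SKYD, a difference of 0.14 (95% CI 0.13 to 0.16). The ratio of these genes therefore differed between the libraries. Pfn1 stood at 0.804 times the level of Cfl1 in PDR (95% CI 0.793 to 0.815) and 1.02 times in SKYD (95% CI 1.0 to 1.03). Pfn1 shared no stretch of 100 bases with another gene. Of the stretches of Cfl1, 9.47% occurred elsewhere, nearly all in the protein-coding gene Snx32, which had 132 reads in PDR and 52 in SKYD against 46591 and 44858 for Cfl1. The length of Cfl1 behind its FPKM was 2354 bases, shorter than the 2844 bases of its annotated exons, which would change its level next to other genes but not its difference between the libraries.

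Coro1a (ENSMUSG00000030707, chr7:126699773-126707787, minus strand) encodes coronin 1A, a coronin found mainly in blood cells that binds filaments and the Arp2/3 complex. It had an FPKM of 1100.2 in PDR, from 71918 reads, and 655 in SKYD, from 45527 reads. The level in PDR was 1.68 times that in SKYD, a difference of 0.75 (95% CI 0.73 to 0.77), about as far above 0 as Actb was below it. Coro1a ranked 68 in PDR and 118 in SKYD. The level of Actb was 2.57 times that of Coro1a in PDR (95% CI 2.55 to 2.60) and 7.30 times in SKYD (95% CI 7.22 to 7.37), a 2.84-fold difference in the ratio that no scaling of the libraries can alter. Coro1b, a coronin with wider expression, had an FPKM of 219 in PDR and 165 in SKYD, so that it was higher in the same library as Coro1a. Per length, Coro1a was 5.02 times the level of Coro1b in PDR (95% CI 4.93 to 5.12) and 3.97 times in SKYD (95% CI 3.88 to 4.06). Coro1a overlaps Bola2 by 26 bases only. Bola2 lies on the other strand and had 1817 reads in PDR and 2034 in SKYD. Whether the counting used strand is not given in the sources used here, and without it the reads of the overlapping ends cannot be told apart.

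Arpc1b (ENSMUSG00000029622, chr5:145114215-145130705, plus strand) encodes the form of the ARPC1 subunit of the Arp2/3 complex that is abundant in blood cells. It had an FPKM of 145 in PDR, from 17395 reads, and 202 in SKYD, from 25791 reads, a difference of -0.48 (95% CI -0.50 to -0.45). Its paralogue Arpc1a had an FPKM of 22.2 in PDR and 31.0 in SKYD. The ratio of Arpc1b to Arpc1a was nearly the same in both, 6.51 in PDR (95% CI 6.16 to 6.89) and 6.52 in SKYD (95% CI 6.23 to 6.83), a difference not detectable at this depth. Of the stretches of 100 bases in Arpc1b transcripts, 17% occurred in another gene, mostly in Pdap1 on the other strand, which had 314 reads in PDR and 581 in SKYD. The spans of Arpc1b and Pdap1 overlap by 1937 bases, and the length behind the FPKM of Arpc1b was 5115 bases. Without the strand setting, the reads of this overlap cannot be told apart. The level of Arpc1b and its ratio to Arpc1a carry that uncertainty.

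The other subunits of the complex went both ways, and Arpc1a, Arpc3 and Arpc4 were higher in SKYD like Arpc1b. Of 9 subunit genes compared, 5 were higher in PDR and 4 in SKYD, with a median difference of 0.21. The interval of Arpc4, from -0.07 to 0.02, included 0, and it turned higher in PDR under both scalings by selected reads and with each step alone. The subunit genes with the highest levels were Arpc5 and Arpc2. Arpc5 had an FPKM of 434 in PDR and 375 in SKYD, and Arpc2 had 441 and 367. Both were thus somewhat higher in PDR. Arpc5l encodes an alternative to the ARPC5 subunit and was the only gene of the complex past 2-fold, with an FPKM of 67.6 in PDR and 29.2 in SKYD, a difference of 1.18 (95% CI 1.13 to 1.24). Arpc5 was 6.42 times the level of Arpc5l in PDR (95% CI 6.25 to 6.59) and 12.9 times in SKYD (95% CI 12.4 to 13.3). The pair of alternative subunits thus differed in proportion between the libraries, whereas the ARPC1 pair did not.

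**Figure D3:**
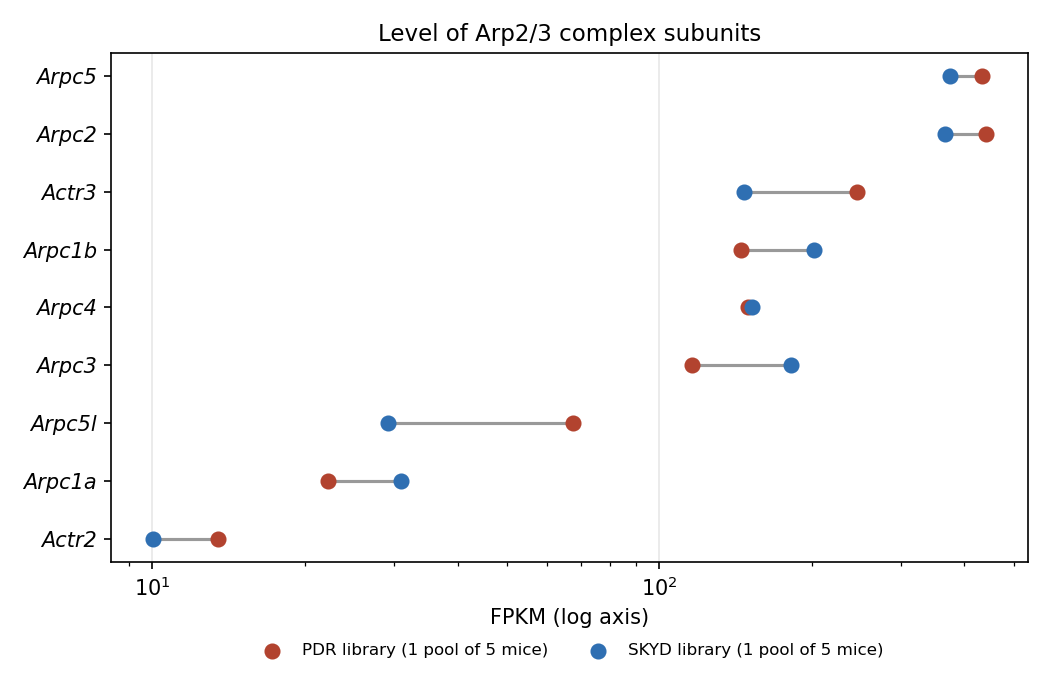
Level of the 9 compared Arp2/3 subunit genes in FPKM on a log axis, with 1 point for each library. Arpc5l, at 67.6 in PDR and 29.2 in SKYD, had the widest gap, and Arpc1b, Arpc1a and Arpc3 lay higher in SKYD.

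Lcp1 (ENSMUSG00000021998, chr14:75131101-75230842, plus strand) encodes L-plastin, the actin-bundling protein of leukocytes, and had the largest difference of the 10 genes. Its FPKM was 91.2 in PDR, from 20350 reads, and 38.5 in SKYD, from 9150 reads. The level was 2.37-fold higher in PDR, a difference of 1.22 (95% CI 1.19 to 1.26), and 89.3% of compared genes differed by less. Lcp1 was the least abundant of the 10 genes in both libraries, ranking 873 in PDR and 1714 in SKYD. The stretches it shared with other genes came to 3.68%, and none of those genes had more than 4 reads in either library. Other genes of bundling and crosslinking proteins went both ways. Tagln2, which encodes transgelin 2, had an FPKM of 376 in PDR and 618 in SKYD, a difference of -0.72 (95% CI -0.74 to -0.69). Aif1, which encodes the macrophage protein Iba1, had an FPKM of 159.9 in PDR and 117 in SKYD, a difference of 0.45 (95% CI 0.39 to 0.50). Without Lcp1, 4 of the 8 bundling and crosslinking genes compared were higher in each library, and none was past 2-fold. The interval of Actn4, from -0.13 to 0.05, included 0. It turned from SKYD to PDR under both scalings by selected reads and with each step alone.

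Vim (ENSMUSG00000026728, chr2:13573927-13582826, plus strand) encodes vimentin, the main intermediate filament protein of leukocytes and mesenchymal cells. It was the gene of the 10 that differed least in the deposited values, with an FPKM of 103 in PDR, from 11503 reads, and 100.5 in SKYD, from 11908 reads. The difference was 0.04 (95% CI 0.00 to 0.08), and 6.69% of compared genes differed by less. Under both scalings by selected reads Pfn1 differed least, at -0.08 and -0.07, against 0.15 and 0.16 for Vim. Vim shared no stretch of 100 bases with another gene. The keratin genes Krt8 and Krt19, which encode intermediate filaments of epithelia, were more than 2-fold higher in SKYD at far lower levels. Krt8 had an FPKM of 4.26 in PDR, from 196 reads, and 17.8 in SKYD, from 872 reads, a difference of -1.84 (95% CI -2.03 to -1.65). Krt19 had an FPKM of 4.64 in PDR and 13.7 in SKYD, a difference of -1.38 (95% CI -1.58 to -1.19). The keratin gene Krt18 had an FPKM of 10.4 in PDR and 11.8 in SKYD, and its interval, from -0.35 to 0.03, included 0. Lmna, which encodes lamins of the nuclear envelope, had an FPKM of 13.3 in PDR and 24.8 in SKYD.

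The 10 genes were set beside a wider list of 164 genes of the actin and intermediate filament cytoskeleton in 12 roles, which contains them. Of these, 119 were compared, with 58 higher in PDR and 61 in SKYD and 4 past 2-fold in each, or 8 of 119 against 14.3% of all compared genes. The median difference was -0.0072 and turned to 0.10 without antigen receptor, haemoglobin and mitochondrial reads and to 0.11 with protein-coding reads only. With all reads on genes as the size it was 0.040. Without the 10 genes, 109 were compared, with 53 higher in PDR and 56 in SKYD. The split of the 119 genes depended on the scaling, with 77 (64.7%) higher in PDR without antigen receptor, haemoglobin and mitochondrial reads, against 57.1% of all compared genes, and 78 (65.5%) with protein-coding reads only, against 57.8%. With all reads on genes as the size it was 67 (56.3%), against 53.0%. Roles with a median above 0 under each scaling tried were the Arp2/3 complex, bundling and crosslinking at 0.37, tropomyosin and myosin at 0.42, membrane and adhesion linkers at 0.01 and the transcription factors of actin genes at 0.13. Actins, at -0.42, and intermediate filaments, at -0.50, had a median below 0 under each scaling tried. These medians include the 10 genes. Without them, the median was 0.51 for the other 2 actins, 0.17 for bundling and crosslinking, 0.04 for monomer binding, 0.24 for the Arp2/3 complex, -0.04 for severing and disassembly and -0.83 for intermediate filaments. With the 10 genes included, the medians of monomer binding at -0.08, severing and disassembly at -0.02, nucleation and elongation at -0.02 and capping at -0.01 turned positive under the pair of scalings by selected reads, and all of these but monomer binding also did so with all reads on genes as the size.

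**Figure D4:**
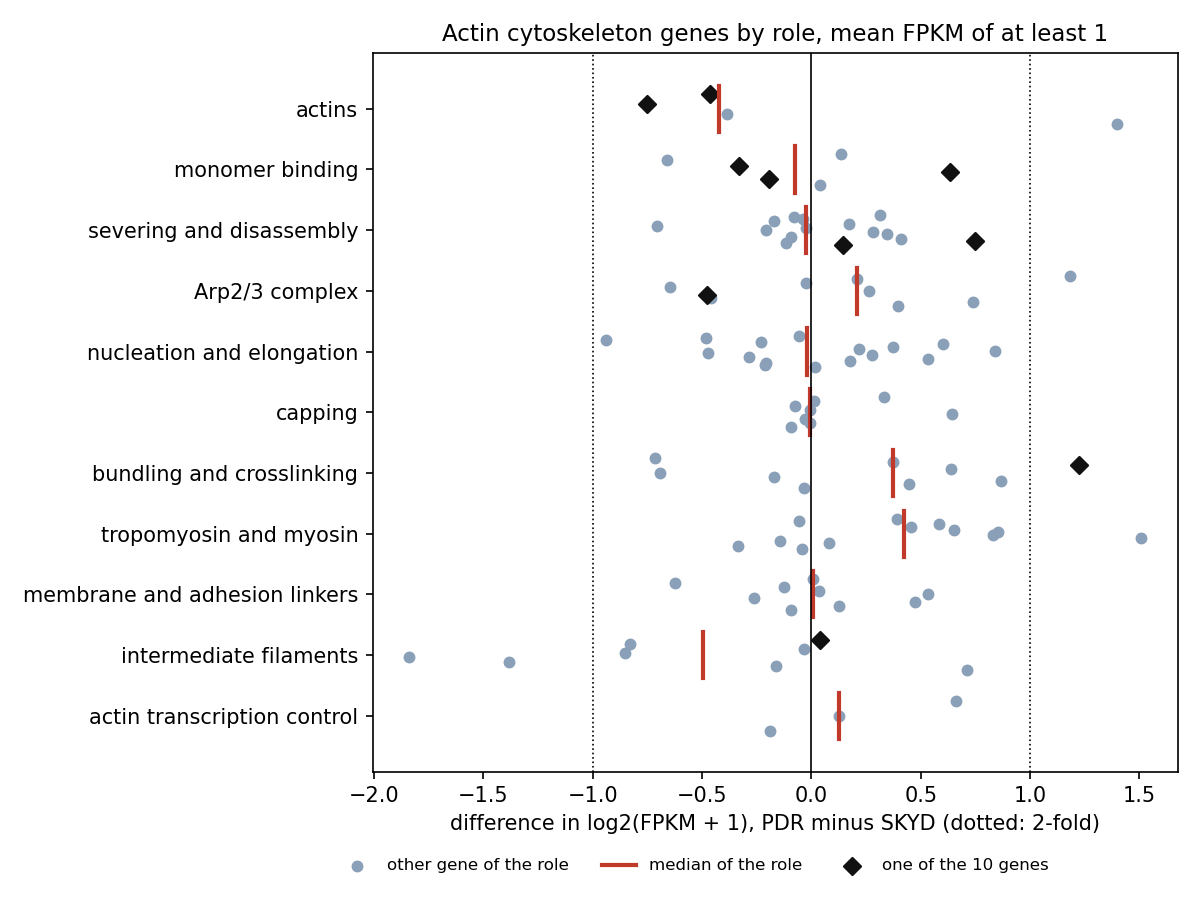
Difference in log2(FPKM + 1), PDR minus SKYD, of 99 compared genes of the wider list, with 1 row for each of 11 roles. Diamonds are the 10 genes, circles the other 89, bars the median of each role and dotted lines 2-fold; most genes lay within 2-fold on both sides of 0.

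Among the remaining actin genes, Acta1, which encodes the actin of skeletal muscle, was past 2-fold. It had an FPKM of 22.8 in PDR, from 824 reads, and 8.05 in SKYD, from 309 reads, a difference of 1.40 (95% CI 1.22 to 1.57), opposite to Actb and Actg1. Acta2, the smooth muscle actin gene, was low, with 1.55 in PDR and 2.34 in SKYD. Of the other monomer-binding genes, Twf2, which encodes twinfilin 2, had an FPKM of 80.0 in PDR and 72.8 in SKYD. Cap1 had 6.85 and 6.63, a difference whose interval included 0. Gmfg, which encodes a factor that takes apart Arp2/3 branches in blood cells, was lower in PDR like Arpc1b, with an FPKM of 204 against 333 and a difference of -0.71 (95% CI -0.74 to -0.68).

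The most abundant genes for starting and capping filaments differed little. Brk1, a small subunit of the WAVE complex that activates Arp2/3, had an FPKM of 242 in PDR and 280.2 in SKYD, and Abi1, of the same complex, had 33.0 and 32.6. For the capping genes Capg and Capza2 the values were 272 and 277 and 252 and 253, respectively. Their intervals, from -0.06 to 0.0003 and from -0.03 to 0.02, included 0. Both differences turned positive under the pair of scalings above and with each step alone. In the motor group, Myl6, a light chain of non-muscle myosin, had an FPKM of 429 in PDR and 474 in SKYD, and the tropomyosin gene Tpm4 had 153 and 117. Myl9, a light chain found in smooth muscle and platelets, was past 2-fold, with 12.9 in PDR and 3.89 in SKYD, a difference of 1.51 (95% CI 1.25 to 1.77).

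Itgb2, the beta chain of leukocyte integrins that links to actin, had an FPKM of 175 in PDR and 210.0 in SKYD, and Fermt3, its activator in blood cells, had 92.6 and 84.8. Of the transcription factors that act on actin genes, Srf had an FPKM of 4.49 in PDR and 2.48 in SKYD, and Elk4 had 2.26 and 2.72.

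Promoters were searched for letters bound by such factors, over the 250 bases before each start in RefSeq sequences of GRCm38.p6, on both strands. No promoter of Actb was among these sequences, so Actb was not searched. The 9 other genes had 13 promoters, since some have several starts, and all genes together had 32851. The CArG box, the motif of serum response factor, occurred in 1 of the 13 promoters, that of Actg1, against 1.47% of all promoters. The stretch around it is shown because it is the match to this motif among the 9 genes searched. The box is in capitals, from chr11:120348546-120348615 on the minus strand, bases 90 to 81 before the start.
Actg1 promoter: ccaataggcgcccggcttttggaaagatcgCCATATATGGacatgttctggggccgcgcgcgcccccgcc
The letters GGGCGG, the core of the GC box, occurred in 9 of the 13 promoters, against 32.7% of all promoters. Counted by gene, with a match in any promoter of the gene, these were 7 of the 9, Actg1, Arpc1b, Coro1a, Lcp1, Pfn1, Tmsb10 and Tmsb4x, against 35.4% of all genes with a promoter. These 7 include genes higher in PDR and genes higher in SKYD. The letters GAGGAAGT, to which the myeloid and B cell factor PU.1 binds, occurred in 0 of the 13 promoters and in 2.44% of all promoters. A match describes the letters in the window only.

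The gene pattern nearest to that of Actb, by Euclidean distance of log2(FPKM + 1) over the 2 libraries, was that of Tyrobp, an adaptor of activating receptors in myeloid and NK cells, at a distance of 0.145. Its FPKM was 2908 in PDR and 4333 in SKYD. Next came the chemokine gene Ccl6 at 0.229 and the protease inhibitor gene Slpi at 0.305. For Coro1a, the nearest was the MHC class I gene H2-K1 at 0.184, with an FPKM of 1249.7 in PDR and 650.3 in SKYD. Rpl19, which encodes a ribosomal protein, followed at 0.415. A further gene, also at 0.415, belongs to a role of the wider list that is not reported here. With 2 libraries, such a distance reflects level and difference alone.

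Genes of the actin cytoskeleton are expressed by many leukocytes, and markers of several cell types differed between the libraries. The gene for F4/80, Adgre1, had an FPKM of 87.3 in PDR and 93.3 in SKYD, and the gene for CD11b, Itgam, had 8.84 and 14.4, so the markers used for sorting were present in both. The 12 macrophage markers took 3.37% of reads in PDR and 6.28% in SKYD, with a median difference of -0.65; 10 were higher in SKYD, although Adgre1 turned higher in PDR under both scalings by selected reads and not with either step alone. Lyz2 was the most abundant of them. B cell markers took 0.386% of reads in PDR and 0.0723% in SKYD. All 7 of the 8 that could be compared were higher in PDR, with a median difference of 2.25. By mean FPKM Cd79b was the most abundant, although in SKYD Cd79a stood higher, at 178 against 168. Of 10 T and NK cell markers, 7 were higher in SKYD, with a median difference of -2.30. These 7 were T cell genes. Together the 10 took 0.0756% and 0.299% of reads in PDR and SKYD. Cd8b1 led them by mean FPKM and in SKYD, at 535. In PDR it stood at 39.7, and Cd2 led at 156. The NK cell genes Ncr1 and Klrb1c were higher in PDR, by 1.81 and 0.38, as was Cd2, by 0.30. The 9 neutrophil markers took 0.321% of reads in PDR and 0.227% in SKYD, and 8 were higher in PDR. S100a9 led them by FPKM, whereas S100a8 led by reads, with 31150 in PDR and 25727 in SKYD. None of these markers was at 0 in both libraries. Their part in the differences of the 10 genes was not tested.

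**Figure D5:**
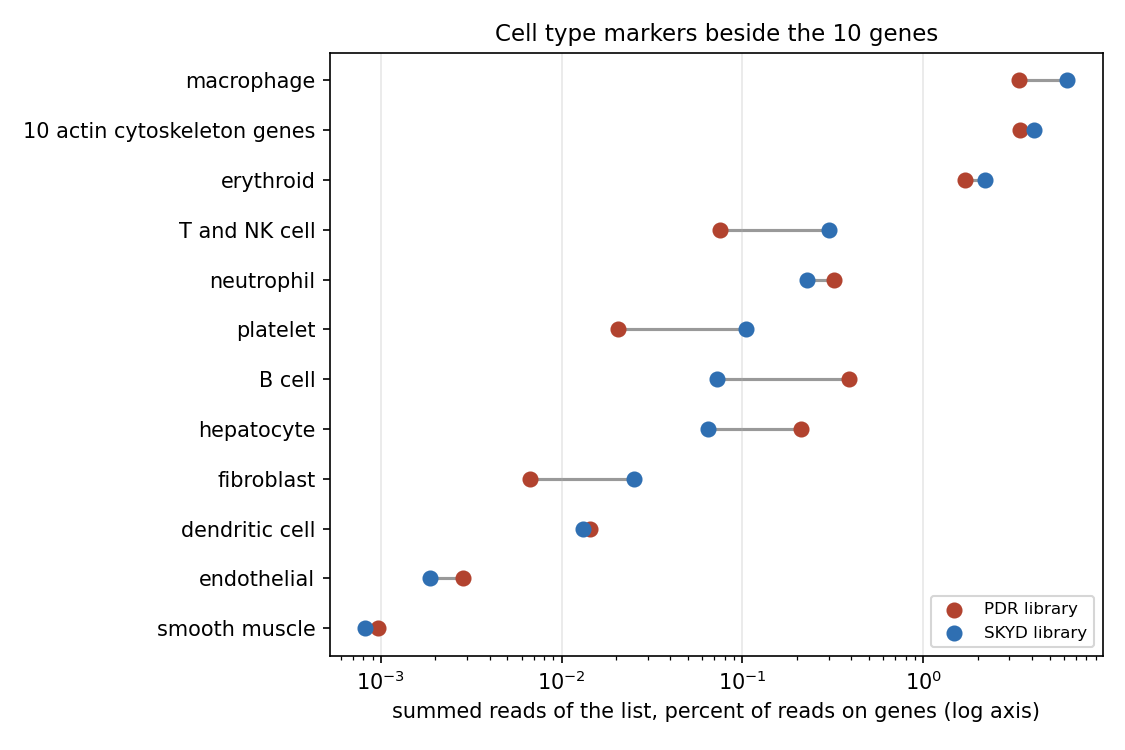
Summed reads of each marker list and of the 10 genes, as a percent of all reads on genes, on a log axis with 1 point for each library. The 10 genes took 3.43% in PDR and 4.11% in SKYD, while the summed reads of B cell markers were higher in PDR and those of macrophage, T and NK cell and platelet markers were higher in SKYD.

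Erythroid markers, led by Hba-a1, took 1.71% of reads in PDR and 2.21% in SKYD, with 4 of 6 compared genes higher in SKYD. Platelets are rich in Tmsb4x and actin. Their markers, led by Pf4, took 0.0205% of reads in PDR and 0.105% in SKYD, although 4 of 5 compared genes were higher in PDR and Pf4 alone had 26049 of the 26781 reads in SKYD, and Gp1bb was at 0 in both. Dendritic cell markers, led by Ccr7, took 0.0143% and 0.0132%, with 3 of 4 compared genes higher in SKYD. Hepatocyte markers took 0.212% in PDR and 0.0646% in SKYD, and all 8 were higher in PDR. Apoa2 led them by FPKM, whereas Alb led by reads, with 14192 in PDR and 4261 in SKYD. Fibroblast markers, which mark cells rich in Vim, took 0.0066% and 0.0253%, with Dcn the most abundant and both compared genes higher in SKYD. Smooth muscle markers took 0.00097% of reads in PDR and 0.00082% in SKYD. Acta2 led them by mean FPKM, although Des had more reads in PDR, 141 against 65. The defining markers Cnn1, Myh11 and Tagln were at 0 in both libraries, and 3 of the 6, Acta2, Des and Tagln, also belong to the wider actin list. Endothelial markers, led by Pecam1, took 0.0029% and 0.0019%, with 1 of 6 compared and higher in PDR. The part of these cell types was likewise not tested.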

How the data were processed

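RNA of sorted aortic macrophages was sequenced as paired reads of 100 bases in 1 pooled library for each group. The authors removed adaptor and low-quality reads, aligned the rest and counted them on genes, and deposited FPKM for 54532 genes with gene length. The submitters' processing notes name Bowtie2 2.0.6, TopHat2 2.0.9, HTSeq 0.6.1 and the build mm9, whereas the positions in the table equal those of GENCODE M21 on GRCm38 for 98.3% of 54495 shared genes and for all 10 genes described. The strand setting of counting is not given in the sources used here, and the sequencer is named differently in the labels and the article.

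To recover reads, the product of FPKM and gene length was divided by the step that 1 read is worth, and the results were whole, within 0.01, for 100% of the 17738 genes above 0 in PDR and the 20499 in SKYD. The step was checked on simulated data. The differences used a pseudocount of 1 and a minimum mean FPKM of 1, with no test. The 12 role lists and 11 marker lists were written from textbook knowledge, and 1 role and its genes are counted in the wider list but not reported here. The members and lists were chosen with earlier results of these data known. Genes named were the 10 genes, the 2 most abundant others and those past 2-fold in each role, those nearest to Actb and to Coro1a, and the most abundant and undetected markers. Abundance was ranked by the mean FPKM of the 2 libraries. Arpc1a was named after its values were seen, as were Adgre1, Itgam, Ncr1, Klrb1c, Cd2, Arpc3, Arpc4, Actr2, Actr3, Actn4 and the genes with shared or overlapping sequence. The marker genes Cd79a, Des, Alb and S100a8 were also named after their values were seen. Shared sequence was sought as windows of 100 bases over GENCODE M21 transcripts, and coding sequences came from the same transcripts. Alternatives were pseudocounts of 0.1 and 0.01, TPM, centring on the median, both scalings by selected reads, no filter, a mean FPKM of at least 5 and a 1.5-fold threshold. Another 3 were chosen after seeing the data, all reads on genes as the library size and each selection of reads applied to the size used in FPKM. Calculations ran in Python 3.11.15 with numpy 2.4.6 and pandas 2.3.3, intervals were taken from scipy 1.17.1, and plots were drawn with matplotlib 3.10.9. Blood lipids and histology were not analysed here.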

Additional observations from a re-analysis of the deposited data

How the results depend on the processing

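Each of the 10 genes kept its direction under all 9 alternatives of pseudocount and scale, 3 of them chosen after seeing the data, and Lcp1 stayed past 2-fold at 1.22 to 1.35. Every alternative of scale moved the median of all compared genes upward, by 0.0035 to 0.11. None of these could therefore turn a gene that was higher in PDR or bring Lcp1 below 2-fold. The difference of Actb ranged from -0.75 to -0.63, that of Pfn1 from -0.19 to -0.07 and that of Vim from 0.04 to 0.16. Without antigen receptor, haemoglobin and mitochondrial genes, 748 genes with 13.1% of PDR and 9.14% of SKYD reads, the median of the 10 genes was 0.038 and that of the wider list 0.10. With protein-coding reads only they were 0.049 and 0.11. Both scalings also replaced the size used in FPKM. With all reads on genes as the size, which was chosen after seeing the data, the median of the 10 genes was -0.027 and that of the wider list 0.040. With the size used in FPKM reduced by the share of reads left out, also chosen after seeing the data, the median of the 10 genes was -0.012 without antigen receptor, haemoglobin and mitochondrial reads and -0.00013 with protein-coding reads. The number of compared genes past 2-fold was 1486 and rose to 2067 and 2144 at pseudocounts of 0.1 and 0.01, to 1697 in TPM and to 1707 with no filter. It was 927 higher in PDR and 652 in SKYD without antigen receptor, haemoglobin and mitochondrial reads, and 933 and 642 with protein-coding reads only. The number fell to 837 (464 higher in PDR, 373 in SKYD) at a mean FPKM of at least 5, since fewer genes were compared. At 1.5-fold it was 3136 (1574 and 1562), and 4 of the 10 genes were past the threshold. No paired analysis was possible because each group had 1 library. The depth limits genes with few reads, such as Acta2, more than the 10 genes, of which Tmsb10 had the fewest in 1 library, 9048.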
